A study of Mus musculus with 12 samples.

Results

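KAP1 peaks of the wild-type mouse embryonic stem cell lines A3 and E14 were set against each other as lists of genome positions. The members were all peaks of the 2 KAP1 lists after peaks that touched had been joined, 10295 in A3 and 1334 in E14, which gave 11629 of the 13716 peaks in the 4 lists of ZFP57 and KAP1. The study profiled ZFP57, KAP1 and H3K9me3 by chromatin immunoprecipitation and sequencing (ChIP-seq) in A3 cells of strain 129X1/SvJ, in A3 cells carrying Zfp57-/-, and in E14 cells of strain 129P2/OlaHsd, with an input library for each, 12 libraries in all. Only the KAP1 libraries of wild-type A3 and wild-type E14 enter here, 1 library per line. Both lines were grown without feeders on gelatin in medium with serum and leukemia inhibitory factor. Per the labels, E14 medium had more serum and A3 medium alone had non-essential amino acids, so line, strain, medium and library cannot be told apart. Peak positions hold no expression values, so the labelled cell type was not checked against marker genes.

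KAP1 (TRIM28) is a corepressor without a DNA-binding domain of its own. KRAB zinc finger proteins bind DNA in a sequence-specific way and recruit KAP1, which brings the H3K9 methyltransferase SETDB1 and HP1 to the site. In embryonic stem cells this machinery is known for silencing endogenous retroviruses and for keeping DNA methylation at imprinted control regions. ZFP57 is 1 of the KRAB zinc finger proteins that work through KAP1.

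Shared peaks were those with at least 1 bp in common with the list of the other line. Of the 10295 A3 peaks 614 were shared, 5.96% of that list, and 9681 were called in A3 alone. Of the 1334 E14 peaks 614 were shared, 46.0% of that list, and 720 were called in E14 alone. Each shared A3 peak met exactly 1 E14 peak and the reverse, so the shared part consisted of 614 pairs. By length, the bases covered by both lists came to 298.5 kb, 4.90% of the sequence under A3 peaks and 44.5% of that under E14 peaks. The A3 list was 7.72 times as long as the E14 list and covered 9.08 times as much sequence. Depth is unknown for both libraries, the lists carry no score, and with 1 library per line no test measures variation between cultures. All intervals below are 95% exact Clopper-Pearson intervals over peaks. They reflect counting error alone, and the peaks of a library do not stand for replicates.

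The paired peaks lay closely on each other. In 217 of the 614 pairs (35.3%, 31.6 to 39.3%) both boundaries were the same in the 2 lines, and in a further 278 pairs (45.3%) 1 boundary was the same. The midpoints coincided in 292 pairs and lay within 75 bp in 549 (89.4%, 86.7 to 91.7%). Boundaries fell on a grid of 150 bp in both lists, so an offset of 75 bp is the smallest that can occur. Only 7 pairs had midpoints more than 300 bp apart, and the farthest lay 2175 bp apart. The E14 midpoint had the higher coordinate in 172 pairs and the lower in 150.

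Where both lines had a peak, the A3 peak was usually the wider. It was wider in 333 pairs (54.2%, 50.2 to 58.2%), equal in 230 and narrower in 51 (8.31%, 6.25 to 10.8%). The E14 peak lay wholly inside the A3 peak, or equalled it, in 545 pairs (88.8%, 86.0 to 91.2%), and the A3 peak lay inside the E14 peak or equalled it in 265. The median A3 peak of a pair was 600 bp and the median E14 peak 450 bp. In 21 pairs (3.42%) the 2 peaks were staggered, each reaching beyond the other at 1 end.

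**Figure D1:**
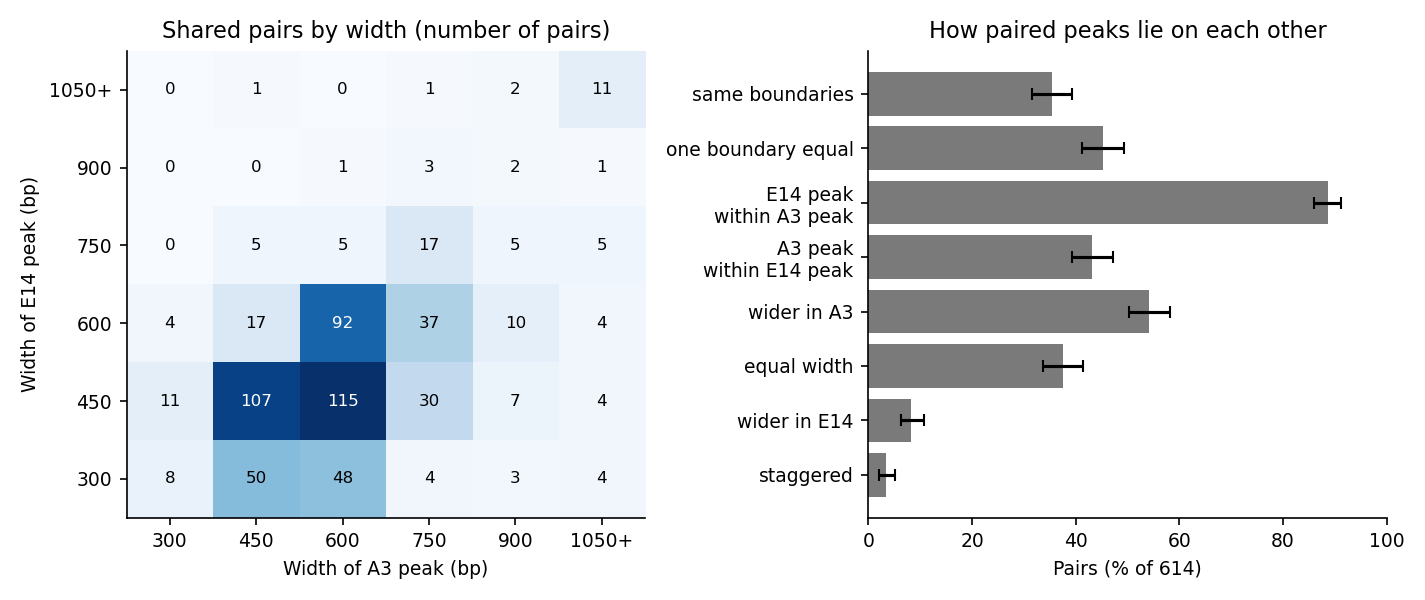
Left, number of shared KAP1 pairs by the width of the A3 peak (x axis, bp) and of the E14 peak (y axis, bp), with widths of 1050 bp and more in 1 class. Right, share of the 614 pairs with each arrangement (%, bars with 95% exact intervals). Most pairs sit on the diagonal or to its right, and the E14 peak lay within the A3 peak in 88.8% of pairs.

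The pairs with the longest overlap were these, in mm9 positions. The longest was on chromosome 9 at 2999851 to 3003300, where both lines had 1 peak of 3450 bp with the same boundaries. It lies at the start of the listed sequence of that chromosome, beside the centromere. On chromosome 4 an overlap of 1800 bp ran from 146559601 to 146561400, between an A3 peak of 2850 bp and an E14 peak of 2700 bp. Chromosome 4 held another 2 of these pairs, at 145724101 to 145725150 and at 145424701 to 145425750, with A3 peaks of 3150 and 3000 bp and E14 peaks of 1950 bp each. In all 3 chromosome 4 pairs the peaks were staggered. On chromosome 13 an A3 peak of 5850 bp at 12913651 to 12919500 held an E14 peak of 1500 bp at its upper end.

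The other 5 pairs were close to equal in width. On chromosome 2 the peaks of both lines ran from 157385101 to 157386450, a width of 1350 bp. On chromosome 10 they ran from 12810301 to 12811350 in both lines, a width of 1050 bp. On chromosome 7 the A3 peak was 1350 bp and the E14 peak 1650 bp at 134754601 to 134755950, and 1200 and 1050 bp at 135831151 to 135832200. On chromosome 17 the overlap at 6253051 to 6254100 joined an A3 peak of 1200 bp and an E14 peak of 1050 bp. In the pairs on chromosomes 2 and 10 and the second on chromosome 7, no further KAP1 peak of either line lay within 50 kb. Positions are not given with genes, exons or introns, because an mm9 annotation was not used here.

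Shared peaks differed in width from the peaks of 1 line alone, and differently so in the 2 lists. In A3 the median was 600 bp in both classes, but 23 of 614 shared peaks (3.75%, 2.39 to 5.57%) had the minimum width of 300 bp, against 1359 of 9681 A3-only peaks (14.04%, 13.4 to 14.7%). In E14 the median was 450 bp in both classes, and 117 of 614 shared peaks (19.1%, 16.0 to 22.4%) had the minimum width, against 355 of 720 E14-only peaks (49.3%, 45.6 to 53.0%). At 600 bp the order turned: 42.5% of shared and 31.5% of A3-only peaks had that width in A3, and 26.7% of shared and 10.3% of E14-only peaks in E14. A wider peak has more room to meet another, so these shares describe the lists and were not tested.

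The share of A3 peaks found again in E14 did not keep rising with width. It was 1.66% at 300 bp (1.06 to 2.49%), 5.595% at 450 bp (4.83 to 6.45%), 7.88% at 600 bp (6.99 to 8.85%) and 7.73% at 750 bp (6.28 to 9.397%). It was 5.24% at 900 bp (3.54 to 7.44%), 4.07% at 1050 to 1350 bp (2.54 to 6.15%) and 6.40% at 1500 bp or more (2.80 to 12.2%, 125 peaks). The 450 to 750 bp peaks together reached 6.91% (6.35 to 7.49%) and those of 900 bp or more 4.86% (3.71 to 6.23%). In E14 the 450 to 750 bp peaks reached 58.6% (55.1 to 62.0%) and the 51 peaks of 900 bp or more 43.1% (29.3 to 57.8%), with overlapping intervals.

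Taking only the widest A3 peaks did not pick out the shared ones. A limit of 900 bp left 1194 A3 peaks, the number nearest to the 1334 of E14. Of these, 58 met an E14 peak, 4.86% of the A3 part (3.71 to 6.23%), against 5.96% for the whole A3 list (5.51 to 6.44%). On the E14 side these 58 pairs gave a share of 4.35% (3.32 to 5.58%). E14-side shares fall as shared A3 peaks are left out, whatever their width. They are therefore not comparable with the 46.0% for the whole A3 list. The 411 pairs kept by a limit of 600 bp made up 30.8% of the E14 list, and the 150 kept by 750 bp made up 11.2%. Without chromosomes 1, 8 and 14 the share of A3 peaks of 900 bp or more that were shared was 7.23% (5.46 to 9.35%), and the fall beyond 750 bp was then within the intervals.

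**Figure D2:**
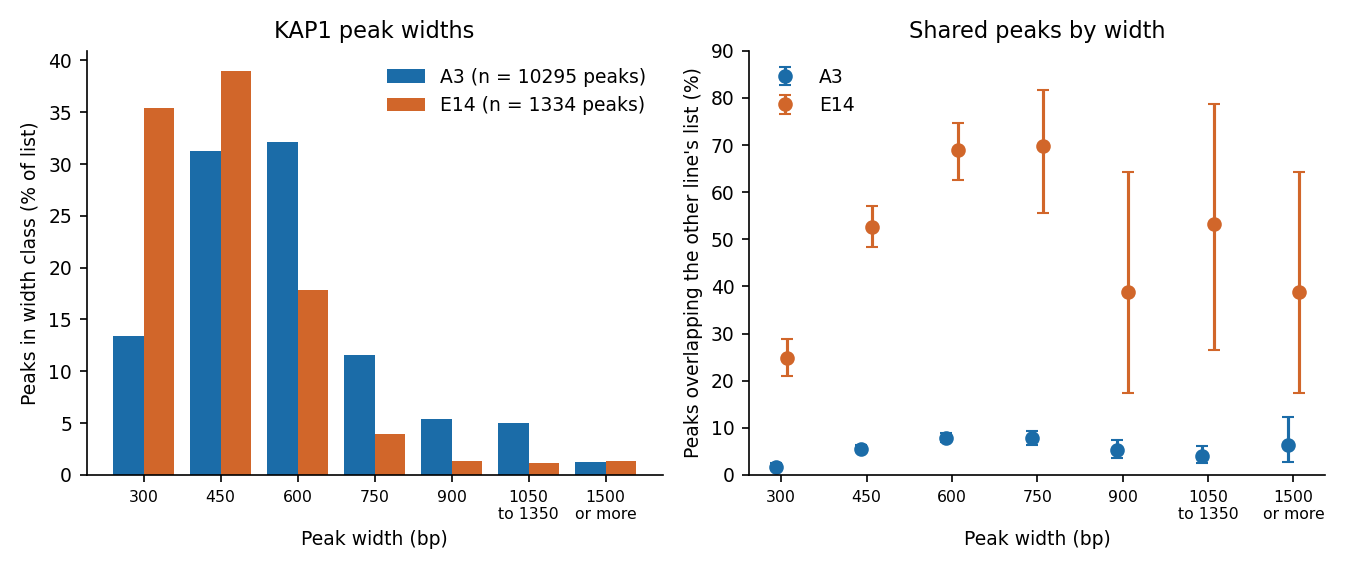
Left, share of each KAP1 list (%, bars) in each class of peak width (bp). Right, share of the peaks in each class that overlap a peak of the other line (%, points with 95% exact intervals). In A3 the share peaks at 7.88% for 600 bp and is 4.07% at 1050 to 1350 bp. In E14 it is 24.8% at 300 bp and 69.8% at 750 bp.

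Wide A3 peaks were concentrated on 3 chromosomes. Peaks of 900 bp or more made up 218 of 851 A3 peaks on chromosome 1 (25.6%, 22.7 to 28.7%), 150 of 617 on chromosome 8 (24.3%, 20.98 to 27.9%) and 93 of 403 on chromosome 14 (23.1%, 19.1 to 27.5%). On the other 16 autosomes the share ran from 6.93% on chromosome 4 to 12.0% on chromosome 2. On chromosome X it was 2 of 176 (1.14%, 0.138 to 4.04%). Chromosomes 1, 8 and 14 were the 3 of 21 chromosomes (14.3%) whose interval lay above that of the rest of the list, and 7 of 21 (33.3%) lay below it, among them X. Chromosomes 1, 8 and 14 held 18.2% of all A3 peaks and 38.6% of those of 900 bp or more. They were singled out after their values were seen.

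At 900 bp the E14 list did not set these 3 chromosomes apart, as their intervals overlapped that of the rest. Its counts are too small to exclude such a pattern. Its shares of peaks of 900 bp or more were 3.57% on chromosome 1 (3 of 84, 0.743 to 10.1%), 7.55% on chromosome 8 (4 of 53, 2.09 to 18.2%) and 3.45% on chromosome 14 (2 of 58, 0.420 to 11.9%). The A3 intervals of all 3 chromosomes lay above these. Peaks this wide were also rarer in E14 on the other autosomes, at 3.85% against 8.87% in A3. Chromosome 13, with 10 of 86 (11.6%, 5.72 to 20.3%), was the 1 chromosome of 21 (4.76%) above the rest of the E14 list. At the lower limit of 600 bp the 3 A3 chromosomes still stood above the rest, with 74.6% on chromosome 1, 77.6% on chromosome 8 and 63.5% on chromosome 14, and chromosome 2 joined them with 60.6%. In E14, 21 of 84 peaks reached 600 bp on chromosome 1 and 18 of 53 on chromosome 8, with intervals overlapping the rest. On chromosome 14 it was 6 of 58 (10.3%, 3.89 to 21.2%) and on chromosome 2 12 of 98 (12.2%, 6.49 to 20.4%). Both lay below the rest of the E14 list, as did 3 of 21 chromosomes (14.3%) at this limit, the opposite direction to A3.

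Along chromosomes 1 and 8 the wide A3 peaks were spread out. In stretches of 20 Mb the share of peaks of 900 bp or more on chromosome 8 ran from 15.9% to 29.4%. On chromosome 1 it was less even. It ran from 7.89% at 100 to 120 Mb (38 peaks, 1.66 to 21.4%) to 38.5% at 120 to 140 Mb (117 peaks, 29.6 to 47.9%), with intervals apart. On chromosome 14 the share rose along the chromosome. Below 60 Mb 21 of 197 A3 peaks were this wide (10.7%, 6.72 to 15.8%), and from 60 Mb on 72 of 206 (35.0%, 28.5 to 41.9%), with medians of 600 and 750 bp. The first 20 Mb held 1 of 35 (2.86%) and the stretch from 100 to 120 Mb held 19 of 46 (41.3%). In E14 the counts were 1 of 31 below and 1 of 27 beyond 60 Mb. The boundary was set after the positions were seen. Copy number was not measured here, and its part in these widths was not tested.

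**Figure D3:**
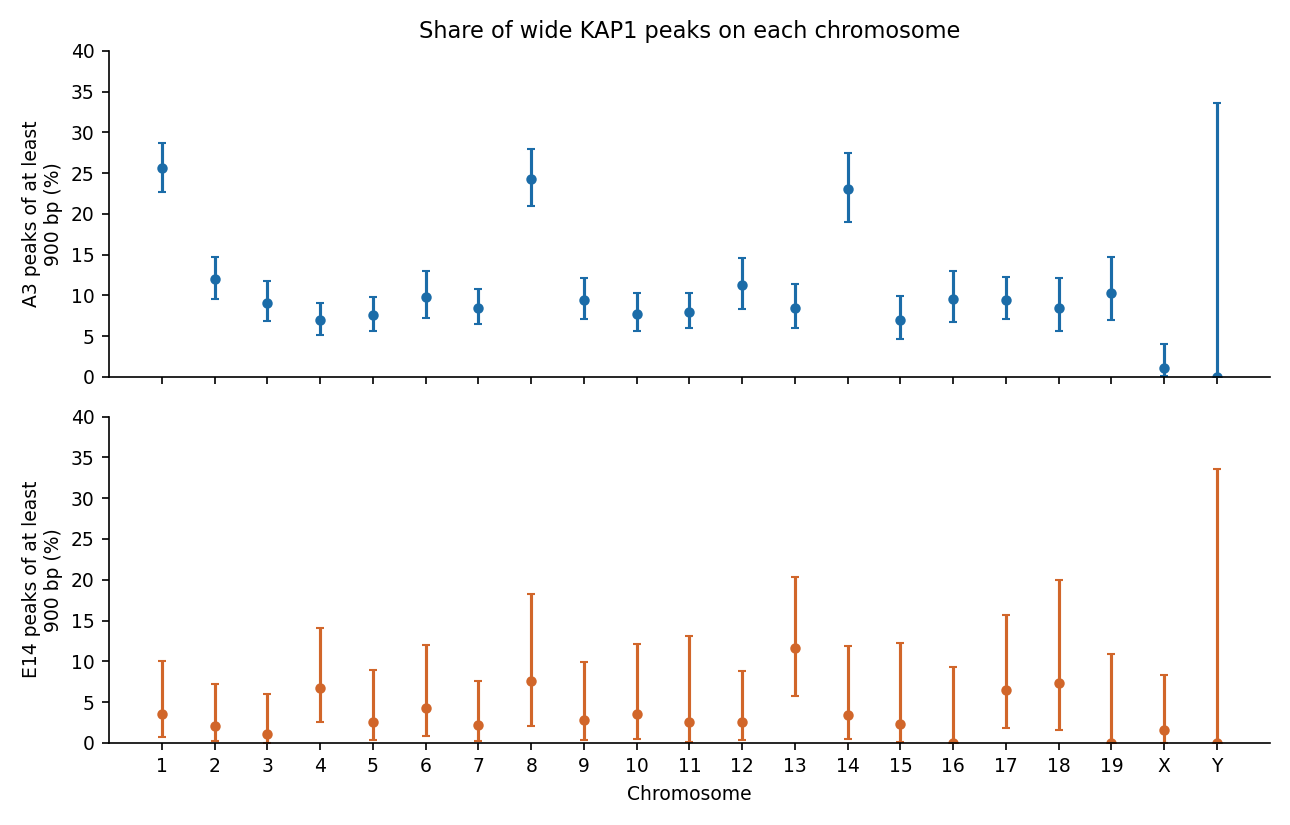
Share of KAP1 peaks of at least 900 bp on each chromosome (%, points with 95% exact intervals), for A3 (top) and E14 (bottom). In A3 chromosomes 1, 8 and 14 stand at 25.6%, 24.3% and 23.1%, with the other autosomes at 6.93 to 12.0% and X at 1.14%. In E14 the intervals of the 3 chromosomes are wide and overlap that of the rest.

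Few of these wide peaks were shared. On chromosomes 1, 8 and 14 together, 5 of the 461 A3 peaks of 900 bp or more met an E14 peak (1.08%, 0.353 to 2.51%), against 53 of 731 on the other autosomes (7.25%, 5.48 to 9.38%). A3 peaks of 450 to 750 bp were shared at 5.90% (4.68 to 7.33%) and 6.82% (6.21 to 7.47%) in the 2 sets of chromosomes, with overlapping intervals. The pairs themselves showed little of the pattern. The A3 peak was wider than its E14 partner in 48 of 81 pairs on chromosomes 1, 8 and 14 (59.3%, 47.8 to 70.1%) and in 268 of 505 on the other autosomes (53.1%, 48.6 to 57.5%), and the median difference was 150 bp in both. The mean width of the paired A3 peak was 624 bp on chromosomes 1, 8 and 14 and 638 bp on the other autosomes. A3-only peaks averaged 714 bp and 563 bp there.

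The chromosomes also took different parts of each list. The A3 share was higher on chromosomes 1, 8 and 11, which made 3 of 21 (14.3%) with intervals apart, and the E14 share was higher on chromosomes 12, 13, X and Y, 4 of 21 (19.0%). Chromosome 11 held 654 A3 and 40 E14 peaks, 6.35% (5.89 to 6.84%) against 3.00% (2.15 to 4.06%), or 16.4 A3 peaks for each E14 peak. Chromosome 13 held 450 and 86, or 5.23 A3 peaks for each E14 peak, the lowest ratio among the autosomes. Chromosome X held 176 and 65, 1.71% (1.47 to 1.98%) against 4.87% (3.78 to 6.17%), and chromosome Y 9 and 9. The call for chromosome 1, at 8.27% against 6.30%, was lost when peaks in runs were left out (8.08%, 7.55 to 8.64%, against 6.36%, 5.10 to 7.81%). Over the span up to the last peak, A3 density on the autosomes ran from 3.01 peaks per Mb on chromosome 6 to 5.65 on chromosome 17 and was 1.06 on X. E14 density ran from 0.329 on chromosome 11 to 0.715 on chromosome 13 and was 0.390 on X.

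**Figure D4:**
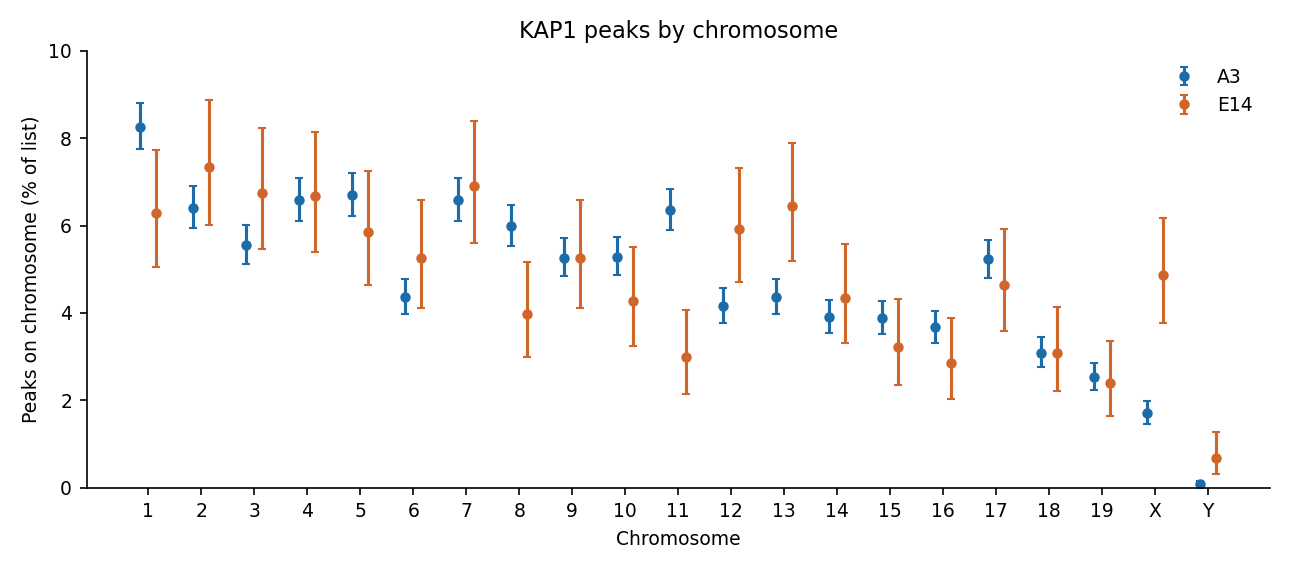
Share of each KAP1 list on each chromosome (% of the list, points with 95% exact intervals; A3 n = 10295 peaks, E14 n = 1334). The A3 point lies above the E14 interval most clearly on chromosome 11, at 6.35% against 3.00%, and below it on chromosome X, at 1.71% against 4.87%.

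The share of E14 peaks that recurred in A3 ran from 35.7% on chromosome 2 (26.3 to 46.0%) to 56.5% on chromosome 7 (45.8 to 66.8%) on the autosomes and was 38.5% on X and 33.3% on Y (3 of 9). An interval apart from the rest of the list, in either direction, was found for 0 of 21 chromosomes (0.00%). The share of A3 peaks that were shared was 14.2% on X (25 of 176, 9.41 to 20.3%) and 33.3% on Y (3 of 9, 7.49 to 70.1%), the 2 of 21 chromosomes (9.52%) above the rest of the list. It was 2.60% on chromosome 11 (17 of 654, 1.52 to 4.13%), 3.88% on chromosome 1 (2.68 to 5.40%) and 3.73% on chromosome 8 (2.38 to 5.54%), the 3 of 21 (14.3%) below it. The A3 list had few peaks for each E14 peak on X and Y and many on chromosomes 1, 8 and 11, which moves the A3-side share in the same direction.

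Peaks of 1 line alone were mostly far from the other list, not near misses. The gap from an E14-only peak to the nearest A3 peak had a median of 107 kb, and the gap from an A3-only peak to the nearest E14 peak a median of 711 kb. Within 1 kb lay 8 of 720 E14-only peaks (1.11%, 0.481 to 2.18%) and 20 of 9681 A3-only peaks (0.207%, 0.126 to 0.319%). Within 10 kb lay 64 (8.89%, 6.91 to 11.2%) and 184 (1.90%, 1.64 to 2.19%), and within 100 kb 344 (47.8%, 44.1 to 51.5%) and 1088 (11.2%, 10.6 to 11.9%). A longer list leaves shorter gaps, so the 2 directions are not comparable. Gaps of E14-only peaks shortened with their width, from a median of 145 kb at 300 bp to 83.9 kb at 450 bp, 66.2 kb at 600 bp and 62.4 kb at 750 bp or more. Among A3-only peaks the medians in the same classes were 638, 756, 716 and 668 kb, with no such order.

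**Figure D5:**
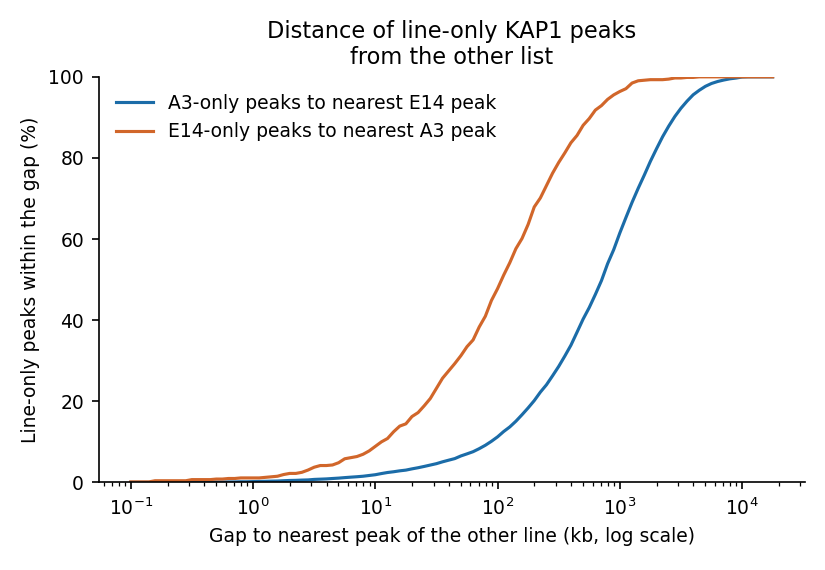
Share of line-only KAP1 peaks (%, y axis) whose gap to the nearest peak of the other line is at most the distance on the x axis (kb, log scale). At 100 kb the E14-only curve stands at 47.8% and the A3-only curve at 11.2%, and at 1 kb both are close to 0.

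At the limit of the call, 5 pairs overlapped by 150 bp, the smallest step of the grid. Among peaks called in 1 line alone, the closest pair was on chromosome 3, whose peaks touched without overlap, 300 bp in A3 at 108494551 to 108494850 and 300 bp in E14 at 108494851 to 108495150. Next among these came pairs on chromosome 2 with gaps of 150, 300 and 600 bp, within 167108401 to 167109600, 98175901 to 98177400 and 150022201 to 150023850. The fifth, on chromosome 17 within 34859701 to 34861650, had a gap of 750 bp between an A3 peak of 750 bp and an E14 peak of 450 bp.

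For all A3-only peaks of 750 bp or more the median gap to an E14 peak was 668 kb, and 11.8% lay within 100 kb. Some of the 5 widest A3-only peaks had an E14 peak within 50 kb. The widest, 13950 bp on chromosome 17 at 6255001 to 6268950, began 900 bp from an E14 peak, that of the chromosome 17 pair above. The 4950 bp peak on chromosome 16 at 3121501 to 3126450 lay 38.9 kb from the nearest E14 peak, and the 3900 bp peak on chromosome 13 at 12980401 to 12984300 lay 12.0 kb away. The 4200 bp peak on chromosome 4 at 146709001 to 146713200 and the 3600 bp peak on chromosome 1 at 85076701 to 85080300 lay 148 kb and 95.1 kb away. The widest E14-only peak, 18900 bp on chromosome 1 at 87479251 to 87498150, lay 15.2 kb from the nearest A3 peak. The next, 11850 bp on chromosome 9 at 3021901 to 3033750, lay 18.6 kb from the shared peak at the start of that chromosome. Those on chromosome 8 at 19764601 to 19773300 and at 19996651 to 20001750, and on chromosome 5 at 146514451 to 146518050, lay 27.0, 195 and 197 kb from an A3 peak.

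The 5 A3-only peaks farthest from any E14 peak were 450 to 600 bp wide and lay on 2 stretches, chromosome 1 between 129844501 and 130120350 and chromosome 11 between 94410301 and 94537200, each 10.0 to 10.3 Mb from the nearest E14 peak. Gaps that long were rare, but the weaker condition of a 1 Mb window without an E14 peak was common. In 1346 windows of 1 Mb with at least 1 A3 peak and no E14 peak lay 5957 A3 peaks, 57.9% of the list. Of the E14-only peaks farthest from A3, 3 lay near the start of chromosome 14, at 4249201 to 4249650, 5071951 to 5072250 and 6034951 to 6037200, with gaps of 4.36, 3.53 and 2.57 Mb. The last of these was 2250 bp wide. The other 2 were 300 bp peaks on chromosome 6 at 79215151 and 42877201, 2.60 and 2.38 Mb away. In the opposite case, 73 windows with an E14 peak had no A3 peak and held 88 E14 peaks, 6.60% of the list.

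A3 peaks stood closer together than E14 peaks. A longer list leaves shorter gaps and more runs, so A3 and E14 are not comparable in these values. Whether the peaks of either line cluster beyond what list length gives was not tested. The median gap to the next peak of the same list was 43.1 kb in A3 and 457 kb in E14. It was 62.6 kb for shared and 42.0 kb for A3-only peaks in A3, and 399.7 kb for shared and 521 kb for E14-only peaks in E14. A neighbour within 10 kb was found for 22.3% of shared (19.1 to 25.8%) and 21.4% of A3-only peaks (20.6 to 22.3%), and for 6.19% of shared (4.42 to 8.40%) and 5.97% of E14-only peaks (4.36 to 7.96%), with overlapping intervals in both lists. Runs of 3 or more peaks with gaps of at most 10 kb numbered 170 in A3, with 559 peaks (5.43% of the list), and 4 in E14, with 13 peaks (0.975%). Of the 170 A3 runs, 26 contained a shared peak. The runs took in 5.05% of shared A3 peaks (3.46 to 7.09%) and 5.45% of A3-only peaks (5.01 to 5.93%), with overlapping intervals.

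The A3 runs with the most peaks, ties ordered by span, began with 2 on chromosome 12. A run on chromosome 12 at 87811501 to 87857700 had 9 A3 peaks over 46.2 kb, and another on the same chromosome at 55811251 to 55839750 had 7 over 28.5 kb. Chromosome 18 had a run of 5 at 21091051 to 21121050. Runs of the same size were found on chromosome 1 (72275251 to 72302700) and on chromosome 3 (133181551 to 133207800). These 5 runs had no E14 peak inside them or within 50 kb. Of all A3-only peaks 6.53% had an E14 peak within about 50 kb, so this absence was not particular to the runs. Another group of 5 A3 peaks, on chromosome 12 at 4555951 to 4569300, held 1 E14 peak. The E14 runs lay elsewhere: 4 peaks on chromosome 17 at 6943351 to 6955200, of which 1 was shared, and 3 peaks each on chromosome 13 at 13191601 to 13210200 and chromosome X at 122690851 to 122705400, with no A3 peak within 50 kb of either. The fourth, on chromosome 3 at 142340851 to 142357200, was a run in both lines, with 3 peaks of each line and 2 shared pairs.

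With both lists put together, 138 runs held peaks of both lines, 307 of A3 and 166 of E14. Both peaks of a shared pair were counted, which favours runs around shared pairs, so this number is not comparable with the runs of a single list. After the chromosome 3 run, the largest was on chromosome 12 at 4555951 to 4569300, with 5 A3 peaks and 1 E14 peak. Runs of 4 A3 peaks and 1 E14 peak lay on chromosome 6 (85832701 to 85855200), chromosome 9 (36315601 to 36337800) and chromosome 16 (13764601 to 13786500). In these 4 runs the E14 peak was 1 of the shared ones.

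Peaks were also counted in windows of 1 Mb, of which 2252 held a peak of either list. The densest A3 windows were on chromosome 7 at 30 to 31 Mb with 27 A3 peaks and 1 E14 peak, chromosome 6 at 128 to 129 Mb with 24 and 2, chromosome 8 at 87 to 88 Mb with 24 and 1, chromosome 7 at 29 to 30 Mb with 22 and 0, and chromosome 16 at 3 to 4 Mb with 21 and 2. The 10 densest A3 windows held 215 A3 and 13 E14 peaks, and 11 of those 13 were shared. The last places were tied at 19 A3 peaks, and ties went to windows with more E14 peaks. A window on chromosome 1 from 182 Mb, with 19 A3 and 0 E14 peaks, was thus left out. The E14 and shared counts of these 10 windows therefore depend in part on that order. The densest E14 window was on chromosome X at 120 to 121 Mb, with 12 E14 and 5 A3 peaks and 2 shared pairs. Chromosome 4 followed with 9 E14 and 11 A3 peaks at 145 to 146 Mb, 4 shared, and 8 and 13 at 146 to 147 Mb, 2 shared. Chromosome 13 at 13 to 14 Mb had 8 and 5 peaks, 1 shared. On chromosome 12 at 22 to 23 Mb all 7 E14 peaks were shared, among 14 A3 peaks.

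Of these windows, 247 (10.97%) had 10 or more A3 peaks and together held 31.2% of the A3 list. In them 145 of 218 E14 peaks were shared (66.5%, 59.8 to 72.7%), against 46.0% of the whole E14 list. An E14 peak in such a window has more A3 peaks to meet, and the part of that in this share was not tested. On the A3 side the direction was the opposite. Of the 3209 A3 peaks in these windows 145 were shared (4.52%, 3.83 to 5.30%), against 5.96% of the whole A3 list. No E14 peak lay in 140 of the 247 (56.7%), and none in 1346 of all 2179 windows with an A3 peak (61.8%). In the 15 windows with 5 or more E14 peaks, 49 of 99 E14 peaks were shared (49.5%, 39.3 to 59.7%), and 7 of the 15 had 10 or more A3 peaks.

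Some peaks of both lists lay at low coordinates. Below 3.5 Mb, a limit chosen after the positions were seen, lay 100 A3 peaks and 35 E14 peaks, and 24 of each were shared. These counts take in all 9 A3 and all 9 E14 peaks of chromosome Y. Apart from Y there were 91 A3 peaks on 17 chromosomes and 26 E14 peaks on 13, 0.884% and 1.95% of the lists. They covered 1.01% of the sequence under A3 peaks and 4.07% of that under E14 peaks. Of the 91 A3 peaks 21 were shared, and of the 26 E14 peaks 21. These are larger parts than the 5.96% and 46.0% of the whole lists. Without all peaks below 3.5 Mb, Y included, the shared part was 5.79% of A3 and 45.4% of E14.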

How the data were processed

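Each deposited file holds the authors' peak calls for 1 library, giving chromosome, start and end and no other value. Reads were handled with Bowtie 0.12.7, CASAVA 1.8.2, bedtools 2.14.3-1 and SAMtools 0.1.18 on the build mm9, per the submitters' processing notes, which are known here only as names. How peaks were called (program, threshold, use of the input) is not stated in the labels, so depth and stringency are unknown for both lists. Starts were 1 above and ends on multiples of 150 bp, so 1 was subtracted from each start. Touching peaks were merged, which removed 53 A3 and 3 E14 peaks. The ZFP57 lists were only counted.

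Widths, overlaps, gaps, runs and windows were computed with Python 3.11.15, numpy 2.4.6, pandas 2.3.3 and scipy 1.17.1 and drawn with matplotlib 3.10.9. Overlaps and gaps were checked on simulated lists. No p-value was computed. Named regions were the 10 longest overlaps, the 5 widest and 5 farthest peaks of 1 line, and the 5 largest runs, densest windows and closest pairs. The members and lists were chosen with earlier results of these data known. Gene, sequence and motif context was not run, because an mm9 genome was not used here.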

Additional observations from a re-analysis of the deposited data

How the results depend on the processing

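Of the alternatives run, those for overlap (reciprocal 50%, at least 300 bp, a gap of up to 1 kb), for peaks over 1500 bp, for autosomes alone and for unmerged peaks left the shared parts of both lists within their intervals. So did leaving out chromosomes 1, 8 and 14, peaks below 3.5 Mb, or windows with 5 or more E14 peaks, which were added after seeing the data. Cutting both lists to their wider part (at least 600 bp in A3 and 450 bp in E14) gave 40.8% for E14, against 46.0%. The cut left out A3 partners of E14 peaks that were kept, which lowers the E14-side share, so these 2 values are not comparable. Runs depended on the gap allowed: 2.32% of A3 and 0.225% of E14 peaks at 5 kb, 29.2% and 3.07% at 50 kb, and 5.92% of A3 peaks when unmerged. Without chromosomes 1, 8 and 14, 15.7% of A3-only peaks had the minimum width. Of the A3 peaks of 900 bp or more, 7.23% were then shared, but these 733 peaks were fewer than the 1139 left in E14. No paired analysis was possible because each group has 1 library. For the same reason no library could be left out.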
